A study of Homo sapiens with 54 samples.

Results

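B3GALT5, DDC, DPEP1, GCNT3, IL1R2, PAOX, PON3, RNF144B, SATB1 and AFAP1L2 are 10 of the 59368 genes quantified in DLD-1 cells, HCT-116 cells and HT-29 cells, 3 lines from human colorectal cancer. They were chosen on their measured levels: each was lower in cells selected for resistance to 5-fluorouracil (5-FU) than in the sensitive parental cells under uracil, in each of the 3 lines as labelled. Every line was taken as sensitive cells and as resistant cells. Both were given uracil, which served as the control, or 5-FU, each at 10 µM for 24 h. For 5-FU with irradiation, the medium was replaced after the 5-FU, and X-rays were then given at the line's median lethal dose. Each of these 18 conditions had 3 replicates, which makes 54 directional poly(A) libraries. The resistant cells of a line came from 1 population carried through rising 5-FU concentrations and kept in 5-FU medium, so the effect of resistance and any other change that arose in that population cannot be told apart.

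5-FU, a fluorinated form of uracil, starves cells of thymidine nucleotides and is built into their RNA and DNA, and it is the backbone of drug treatment for colorectal cancer. The 10 genes belong to no single pathway. Most encode enzymes or surface proteins. They include glycosyltransferases that build the sugar chains of mucins and of the cell surface. Others are enzymes that handle amines, polyamines, peptides and lactones, and a decoy receptor for interleukin-1. The remainder encode a ubiquitin ligase, an adaptor of tyrosine kinase signalling and a chromatin organiser.

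The rule used the resistant and sensitive uracil libraries, so their values are given as a description, without a test. With edgeR, a gene was called where its p, adjusted by Benjamini-Hochberg, was 0.01 or less and its log2 fold change was 1 or more in size. By these limits 2.01% of the tested genes were lower in resistant DLD-1, 6.8% in resistant HCT-116 and 18% in HT-29 as labelled, under uracil. All 10 genes were among them by choice. In all, 23 genes passed these limits in the 3 lines, of which 6 others carried a zinc finger (ZNF) symbol and 7 were GPRIN2, NPM2, PRR36, SERTAD4, TNFAIP8L3, TSPOAP1-AS1 and USH1C. A further 335 genes were lower in all 3 lines by the adjusted p but not by the fold limit. Of the 23, the genes nearest the fold limit were TNFAIP8L3, at -1.11 in HCT-116, and GPRIN2, at -1.11 in DLD-1. Of the 10, they were GCNT3, at -1.14 in DLD-1, and B3GALT5, at -1.19 in DLD-1. Just outside it were AC009275.1, at -0.997 in HCT-116, ETS2, at -0.993 in HCT-116, and PRR15, at -0.991 in DLD-1.

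The labels of 1 set of libraries went against their content. Of 64 genes that mark HCT-116 among the sensitive lines under uracil, 96.9% were at 1 TPM (a transcript level scaled by length and depth) or more in the 5-FU and irradiated libraries labelled resistant HT-29, while 0% of the 12 HT-29 markers and 0% of the 20 DLD-1 markers were. Resistant DLD-1 held 95% of the DLD-1 markers and resistant HCT-116 held 96.9% of the HCT-116 markers. Every difference between resistant and sensitive HT-29 given here is between these labelled libraries and sensitive HT-29, in which line and resistance cannot be told apart, and these libraries are also set against HCT-116. All groups expressed epithelial markers, with 6 to 8 of 9 listed genes at a mean of 1 TPM or more, and their summed level ran from 1448 to 13966 TPM. Of the 6 fibroblast, 5 leukocyte and 4 endothelial markers, at most 2 of any list reached 1 TPM in a group, with summed levels of at most 31.4, 25.1 and 5.43 TPM, and CD3E, LUM or KDR was at 0 in some groups. Library totals ran from 38956787 to 218518001 estimated counts (median 51373200), the highest being replicate 2 of sensitive DLD-1 under uracil, a library that is part of each fit with DLD-1.

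The start regions of the genes differ in composition, and the 250 bases before the start of 4 of them are shown because together they hold each of the motifs that were found. RefSeq held a promoter entry (GRCh38.p14) within 100 bases of the main start of 8 of the 10 genes, the exceptions being B3GALT5 and PAOX. The sequences run 5′ to 3′ on the gene's strand, and capitals mark TATAAA in DPEP1, GTTAAT and AGATAA on the opposite strand in GCNT3, and GGGCGG on either strand in PON3 and SATB1.
DPEP1, chr16:89630020-89630269, plus strand: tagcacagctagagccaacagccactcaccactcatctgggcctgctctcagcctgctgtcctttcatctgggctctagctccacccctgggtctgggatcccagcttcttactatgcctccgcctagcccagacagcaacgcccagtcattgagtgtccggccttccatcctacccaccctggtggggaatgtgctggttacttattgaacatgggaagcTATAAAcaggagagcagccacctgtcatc
GCNT3, chr15:59611533-59611782, plus strand: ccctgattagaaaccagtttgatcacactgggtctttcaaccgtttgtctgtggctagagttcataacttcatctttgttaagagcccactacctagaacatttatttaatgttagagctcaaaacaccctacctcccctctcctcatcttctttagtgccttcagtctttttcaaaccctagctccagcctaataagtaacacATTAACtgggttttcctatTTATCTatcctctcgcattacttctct
PON3, chr7:95396376-95396625, minus strand: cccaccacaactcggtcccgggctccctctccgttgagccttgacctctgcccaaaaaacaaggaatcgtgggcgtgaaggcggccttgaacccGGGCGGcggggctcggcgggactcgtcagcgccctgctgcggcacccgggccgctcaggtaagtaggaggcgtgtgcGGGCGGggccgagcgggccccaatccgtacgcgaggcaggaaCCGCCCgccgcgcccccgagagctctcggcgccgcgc
SATB1, chr3:18425340-18425589, minus strand: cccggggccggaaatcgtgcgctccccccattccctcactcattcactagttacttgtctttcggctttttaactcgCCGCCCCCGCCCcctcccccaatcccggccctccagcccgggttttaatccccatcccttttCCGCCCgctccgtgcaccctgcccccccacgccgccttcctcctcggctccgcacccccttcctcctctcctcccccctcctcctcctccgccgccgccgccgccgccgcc
The motifs were searched on both strands from 250 bases before to 50 after the start. The GC box letters GGGCGG were in 3 of 8 promoters (PON3, SATB1 and AFAP1L2) and in 45% of all 35116 promoters of the table. TATAAA was in 2 (DPEP1 and RNF144B) and in 11.5% of all, and GTTAAT, part of the HNF1 site, in 1 (GCNT3) and in 6.88% of all. AGATAA, which GATA factors bind, was in 1 (GCNT3) and in 10.3% of all. CAAAGT (HNF4) and TTTATG (CDX) were in 0 of 8, against 11.9% and 10.6% of all, so these letters were not in these windows. The median GC content was 59.7% over the 8 promoters, with a range of 42.3% to 80.0%, and 58.7% over all. The ratio of observed to expected CpG had a median of 0.442 against 0.579 over all, and it was under 0.6 in 4 of 8 promoters and in 51.1% of all.

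The question of the comparisons that follow is whether the genes stayed lower in resistant cells once both were treated, in libraries that the choice of genes did not use. These libraries came from the same cell populations, so genes chosen as lower under uracil were likely to be lower in them too. Each fit also held the uracil libraries of the line, which entered its filter on low counts, its scaling and its estimate of the spread. The comparisons are therefore no independent check of the choice, and the shares of all genes are given as a scale only. Under 5-FU, 8 of the 10 genes were lower in resistant than in sensitive DLD-1, where 5.23% of the tested genes were lower and 3.88% higher. In HCT-116, 9 were lower, against 8.03% of genes lower and 5.28% higher. Under 5-FU with irradiation 8 genes were lower in DLD-1 and 8 in HCT-116, where 5.07% and 6.14% of the tested genes were lower. None of the 10 was called higher in these 4 comparisons, and all 10 fitted differences were negative in each. The median log2 difference of the 10 was -2.36 for DLD-1 and -2.29 for HCT-116 under 5-FU, and -2.25 and -2.17 with irradiation. For the libraries labelled resistant HT-29 against sensitive HT-29, 10 genes were lower under 5-FU, against 21% of genes lower and 21.7% higher, and 9 with irradiation, against 20.3% lower. All 10 differences were negative under both, with medians of -5.79 and -5.47. For DDC the mean TPM went the other way, with overlap, at 0.326 in sensitive HT-29 and 0.434 in the labelled libraries under 5-FU. With irradiation these means were 0.528 and 0.563 TPM. The median over all tested genes lay between -0.02 and 0.01 in each of these comparisons. These differences are in RNA per cell population, in which fewer expressing cells and less RNA per cell cannot be told apart. In what follows, TPM values are levels, and differences are log2 fold changes fitted to the estimated counts with their standard error (SE), adjusted over all genes of the fit. Ratios of TPM and fitted differences can differ in size, since TPM divides counts by transcript length. Of the 540 estimated counts of the 10 genes, 22.4% were whole numbers to within 1e-09, and the others were fractions from the sharing of reads among transcripts, rounded before the fit.

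**Figure D1:**
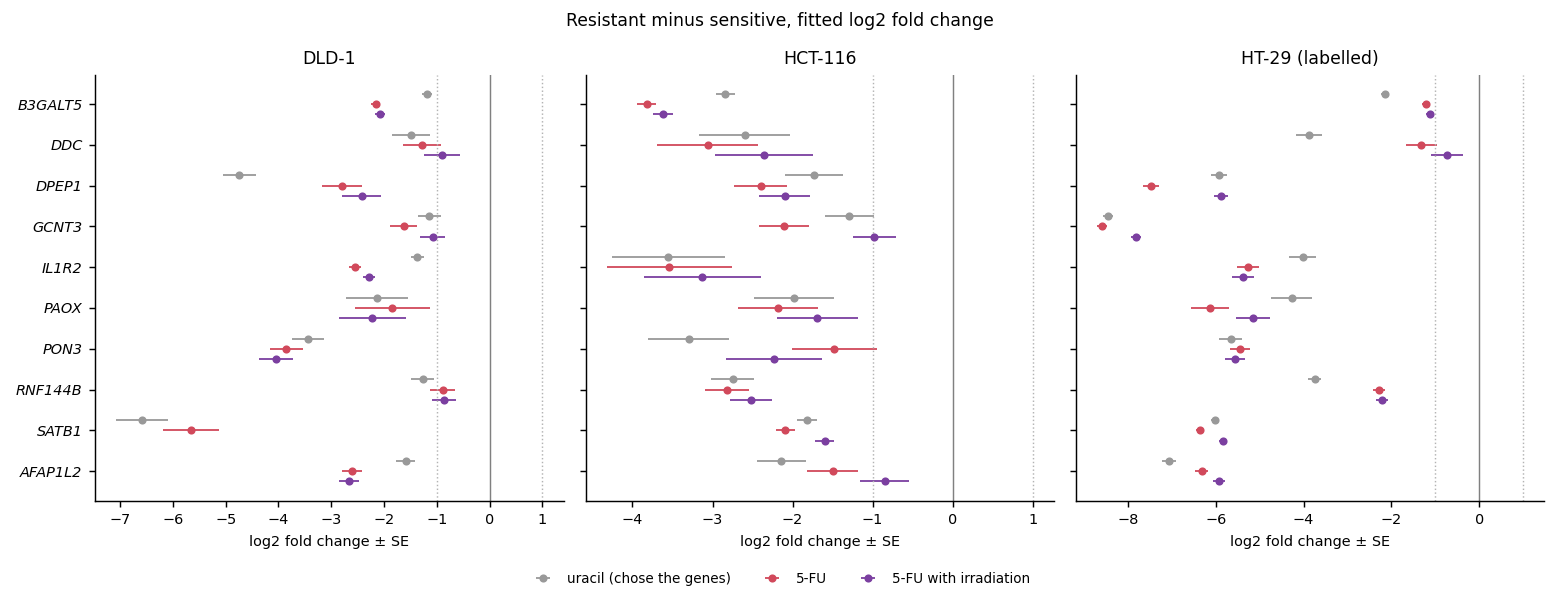
Log2 fold change of resistant over sensitive cells (x axis, log2) for each of the 10 genes (y axis) by line (HT-29 as labelled), under uracil, 5-FU and 5-FU with irradiation; points are edgeR estimates, bars are 1 SE and dotted lines mark a change of 1 in size. Under 5-FU all 10 points lie below 0 in each line, and the HT-29 points reach -8.59 for GCNT3; a fit against a group with no count (SATB1 in irradiated DLD-1) is not drawn.

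Among the glycan enzymes, B3GALT5 (chr21:39556442-39673137, plus strand, GENCODE 44 on GRCh38, as for the positions that follow) encodes a galactosyltransferase that extends the chains on which Lewis antigens are built. In DLD-1 under 5-FU it stood at 2.42, 2.26 and 1.95 TPM in the sensitive libraries and at 0.526, 0.45 and 0.499 TPM in the resistant ones. In HCT-116 the sensitive values were 1.98, 1.76 and 1.88 TPM and the resistant values 0.155, 0.132 and 0.134 TPM. The groups did not overlap in either line. The difference was -2.16 ± 0.09 (adjusted p = 5.77e-14) in DLD-1 and -3.82 ± 0.12 (adjusted p = 5.14e-17) in HCT-116, with p from the quasi-likelihood test of edgeR after Benjamini-Hochberg adjustment, here and in what follows. The choice of genes did not use the 36 libraries under 5-FU and 5-FU with irradiation. Over all transcripts, the lowest sensitive value of B3GALT5 in these (1.07 TPM) was above the highest value in libraries labelled resistant (0.65 TPM). Of the other 9 genes, only PON3 was separated in this way (0.61 and 0.465 TPM). For PON3 this did not hold in coding transcripts alone, where a sensitive HCT-116 library under 5-FU was at 0.0248 TPM. The share of all genes separated over these 36 libraries was not counted, so nothing is read from how many of the 10 were. In sensitive HT-29 B3GALT5 was at 1.14, 1.38 and 1.29 TPM under 5-FU, while the libraries labelled resistant HT-29 were at 0.441, 0.65 and 0.553 TPM. The difference was -1.22 ± 0.09 (adjusted p = 9.3e-13). This was the smallest of the 10 differences in HT-29 under 5-FU. With irradiation it was -1.13 ± 0.09 (adjusted p = 5.38e-12), which under scaling by library size alone became -0.98, short of the fold limit. In the other lines the irradiated differences were -2.08 ± 0.09 (adjusted p = 7.12e-14) for DLD-1 and -3.62 ± 0.12 (adjusted p = 9.95e-17) for HCT-116.

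GCNT3 (chr15:59594875-59640239, plus strand) encodes the enzyme that adds branches to the O-linked sugars of mucins. Its highest level was above that of the other 9 genes. In sensitive HT-29 it was at 341, 333 and 334 TPM under 5-FU, while no library outside sensitive HT-29 was above 3.10 TPM. The libraries labelled resistant HT-29 held 0.657, 0.457 and 1.55 TPM, a difference of -8.59 ± 0.11 (adjusted p = 4.06e-28). In DLD-1 the sensitive libraries held 2.32, 2.16 and 3.1 TPM and the resistant ones 0.824, 0.564 and 0.417 TPM, without overlap. In HCT-116 the values were 0.914, 0.691 and 0.565 TPM against 0.451, 0.0541 and 0.378 TPM, again without overlap. The differences were -1.63 ± 0.25 (adjusted p = 1.12e-05) in DLD-1 and -2.11 ± 0.31 (adjusted p = 3.2e-06) in HCT-116. With irradiation it was -1.08 ± 0.23 (adjusted p = 0.000502) in DLD-1, but -0.98 ± 0.27 (adjusted p = 0.00399) in HCT-116, where the fold limit was missed and the groups overlapped (0.729, 0.934 and 1.34 TPM against 0.306, 0.512 and 0.808 TPM). That limit was passed without resistant HCT-116 replicate 2 (-1.36) or sensitive replicate 1 (-1.12). For the libraries labelled resistant HT-29 the irradiated difference was -7.81 ± 0.11 (adjusted p = 5.37e-28). GTF2A2, a gene of the general transcription machinery, overlaps GCNT3 in the annotation.

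**Figure D2:**
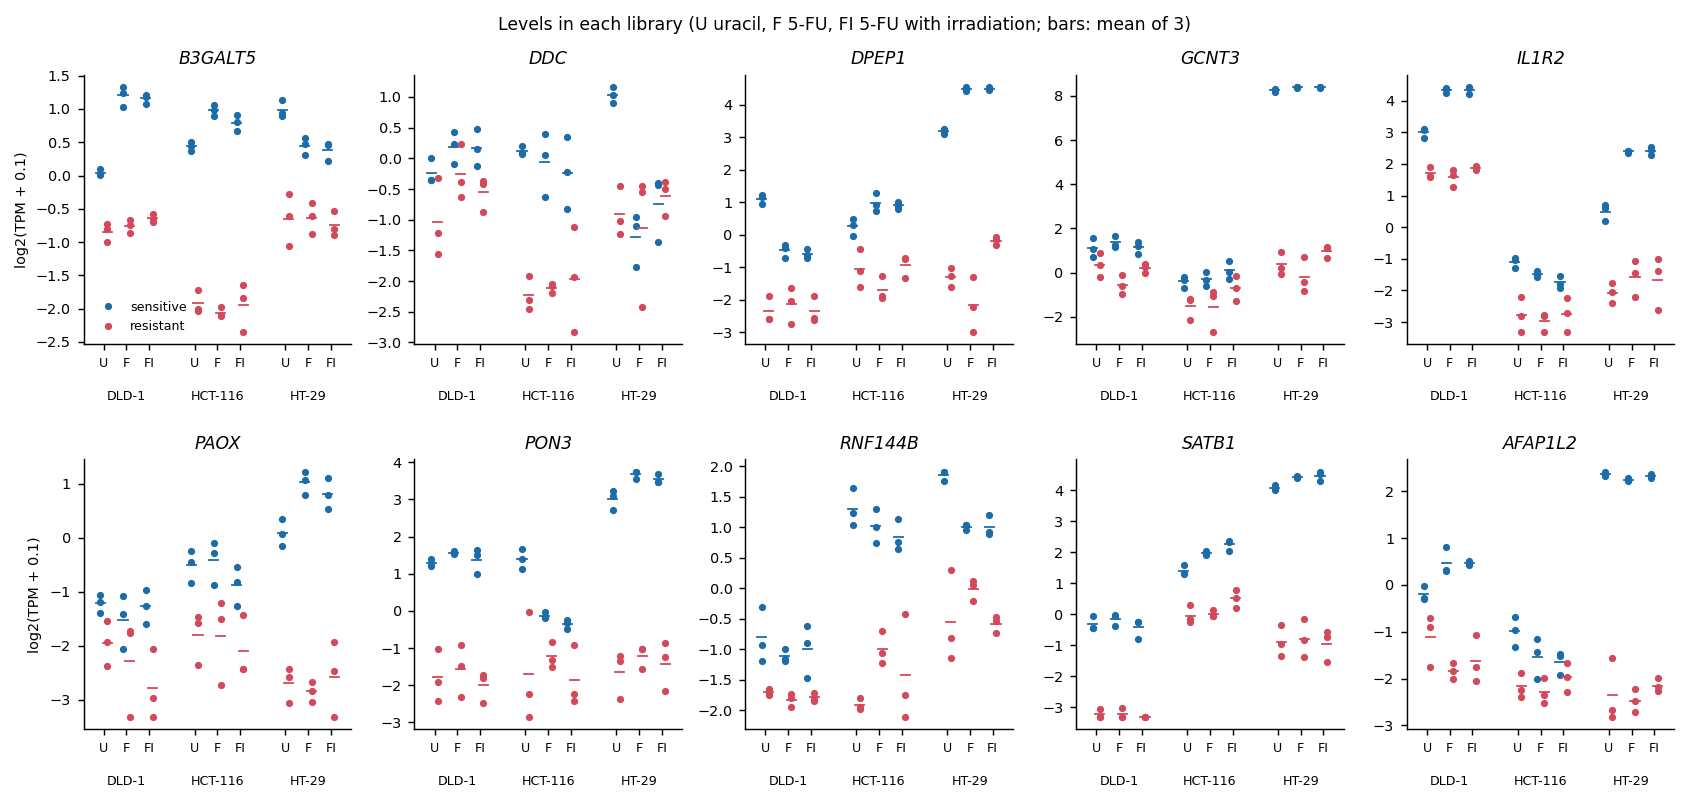
Level of each gene as log2(TPM + 0.1) (y axis of each panel, each with its own range) in the 54 libraries, by line and by treatment (U uracil, F 5-FU, FI 5-FU with irradiation); each point is 1 library, blue sensitive and red resistant (for HT-29, as labelled), and bars are means of 3. GCNT3 stands between 291 and 341 TPM in the 9 sensitive HT-29 libraries, and B3GALT5 lies higher in every sensitive than in every resistant library, which under uracil follows in part from the choice of genes.

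DPEP1 (chr16:89613308-89638456, plus strand) encodes a membrane dipeptidase that cleaves cysteinylglycine and converts leukotriene D4 into E4. In DLD-1 under 5-FU the sensitive libraries held 0.513, 0.66 and 0.71 TPM and the resistant ones 0.0494, 0.144 and 0.225 TPM. In HCT-116 they held 2.33, 1.55 and 1.79 TPM and 0.17, 0.312 and 0.16 TPM. Every sensitive library was above every resistant one of its line. The differences were -2.80 ± 0.38 (adjusted p = 2.37e-06) and -2.40 ± 0.33 (adjusted p = 1.75e-06), and with irradiation -2.42 ± 0.37 (adjusted p = 1.22e-05) and -2.10 ± 0.32 (adjusted p = 7.92e-06). In HT-29 the contrast was 22.4, 23.1 and 21.4 TPM in sensitive cells against 0.116, 0.309 and 0.0255 TPM, a difference of -7.47 ± 0.18 (adjusted p = 7.35e-23).

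PON3 (chr7:95359872-95396375, minus strand) encodes a paraoxonase, a lactonase with antioxidant activity. Under 5-FU it was at 2.79, 2.83 and 2.98 TPM in sensitive DLD-1 and at 0.257, 0.43 and 0.101 TPM in resistant DLD-1, a difference of -3.85 ± 0.32 (adjusted p = 1.86e-09). In HCT-116 it was at 0.783, 0.79 and 0.871 TPM against 0.465, 0.3 and 0.252 TPM. Although these groups did not overlap, the difference of -1.48 ± 0.53 (adjusted p = 0.0215) missed the limit on p. It passed when the compared groups were fitted alone (-1.46, adjusted p = 0.000481) and with no filter on low counts (-1.48, adjusted p = 0.000256). Under uracil sensitive HCT-116 had stood higher, at 2.55, 2.09 and 3.09 TPM, so that under 5-FU it lay nearer to the resistant cells. With irradiation PON3 was called in both lines, at -4.05 ± 0.32 (adjusted p = 8.78e-10) and -2.23 ± 0.60 (adjusted p = 0.00325); the HCT-116 call was lost on leaving out resistant replicate 2 (-1.80), resistant replicate 3 (-1.96) or sensitive replicate 2 (-2.14). In HT-29 the levels were 13.3, 13.2 and 11.6 TPM in sensitive cells and 0.24, 0.395 and 0.389 TPM in the libraries labelled resistant, a difference of -5.45 ± 0.22 (adjusted p = 8.93e-18).

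PAOX (chr10:133379261-133391694, plus strand) encodes the peroxisomal oxidase that returns acetylated polyamines to putrescine and spermidine. It was the faintest of the 10 in sensitive DLD-1, with 19, 8 and 8 counts in the sensitive and 3, 0 and 3 counts in the resistant libraries under 5-FU. The levels, 0.372, 0.141 and 0.275 TPM against 0.201, 0 and 0.194 TPM, overlapped, and the difference of -1.84 ± 0.71 (adjusted p = 0.036) was not called. With irradiation it was -2.22 ± 0.63 (adjusted p = 0.00523) in DLD-1, a call lost on leaving out resistant replicate 2 (-1.79) or 3 (-1.72) or sensitive replicate 2 (-2.18) or 3 (-2.04). In HCT-116 under 5-FU the levels were 0.727, 0.447 and 0.842 TPM and 0.332, 0.252 and 0.0519 TPM, a difference of -2.18 ± 0.50 (adjusted p = 0.000788). With irradiation it was -1.69 ± 0.51 (adjusted p = 0.00779) in HCT-116, lost without resistant replicate 1 (-1.47) or 3 (-1.28) or sensitive replicate 1 (-1.27) or 2 (-1.82), or with the compared groups fitted alone (-1.70). Sensitive HT-29 stood higher, at 2.24, 1.64 and 2.01 TPM under 5-FU against 0.0219, 0.0578 and 0.0406 TPM in the libraries labelled resistant, a difference of -6.13 ± 0.43 (adjusted p = 1.05e-12). An unnamed coding gene, ENSG00000254536, overlaps PAOX in the annotation.

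DDC (chr7:50458436-50565405, minus strand) encodes the decarboxylase that makes dopamine and serotonin from their amino acid precursors. Its counts were called lower in resistant cells under 5-FU in DLD-1 (-1.29 ± 0.36 (adjusted p = 0.0051)) and HCT-116 (-3.06 ± 0.63 (adjusted p = 0.000236)), and in the labelled libraries against sensitive HT-29 (-1.32 ± 0.35 (adjusted p = 0.00148)). In DLD-1 the levels, 1.24, 0.834 and 1.08 TPM in sensitive and 0.669, 0.546 and 1.07 TPM in resistant libraries, overlapped, with a ratio of the means of 1.38. The DLD-1 call rested on few counts, 51, 31 and 26 in sensitive and 6, 7 and 15 in resistant libraries, and it was lost on leaving out any library but resistant replicate 3, with values of -1.0, -1.20, -1.23, -1.33 and -1.30 without resistant replicates 1 and 2 and sensitive replicates 1, 2 and 3. The HT-29 call was lost without resistant replicate 1 (-0.90) or sensitive replicate 1 (-1.13). With irradiation DDC was called in HCT-116 (-2.36 ± 0.61 (adjusted p = 0.00226); lost without resistant replicate 3, at -2.0, or sensitive replicate 1, at -1.70), while DLD-1 gave -0.91 ± 0.34 (adjusted p = 0.0311) and HT-29 as labelled gave -0.73 ± 0.36 (adjusted p = 0.0633), both short of the limits. The DLD-1 value passed them without sensitive replicate 2 (-1.16).

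For DDC, counts and TPM did not rank the libraries alike. Under 5-FU sensitive HT-29 held 40, 34 and 15 counts and the libraries labelled resistant HT-29 3, 11 and 10 counts, yet the TPM values were 0.418, 0.366 and 0.193 against 0.0868, 0.629 and 0.587. TPM divides a transcript's counts by its length, and the transcripts in use differed. Over the sensitive HT-29 libraries, coding transcripts carried 87.0% of the DDC TPM and the most abundant was ENST00000444124 (protein coding, 60.1%). In the libraries labelled resistant HT-29 coding transcripts carried 6.62%, and a retained-intron transcript, ENST00000494914, carried 64.3%. The same transcript led in sensitive DLD-1 (52.4%), resistant DLD-1 (61.4%) and sensitive HCT-116 (54.6%). Taking coding transcripts alone, DDC in sensitive HT-29 stood at 1.89, 1.76 and 1.85 TPM under uracil and at 0.418, 0.36 and 0.193 TPM under 5-FU. In sensitive DLD-1 coding transcripts reached 0.179, 0.159 and 0.340 TPM under 5-FU, and in resistant DLD-1 they were at 0 in all 3 libraries under uracil and under 5-FU. In HCT-116 coding DDC was at or under 0.163 TPM throughout. Coding transcripts thus gave part of the DDC level in sensitive DLD-1 and most of it in sensitive HT-29. Taking coding transcripts alone for every gene, all sensitive libraries were above all resistant ones under 5-FU for 10 genes of DLD-1, for 7 of HCT-116 and, as labelled, for 10 of HT-29. The same held for 33.6%, 31.2% and 37.5% of all tested genes with coding transcripts.

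**Figure D3:**
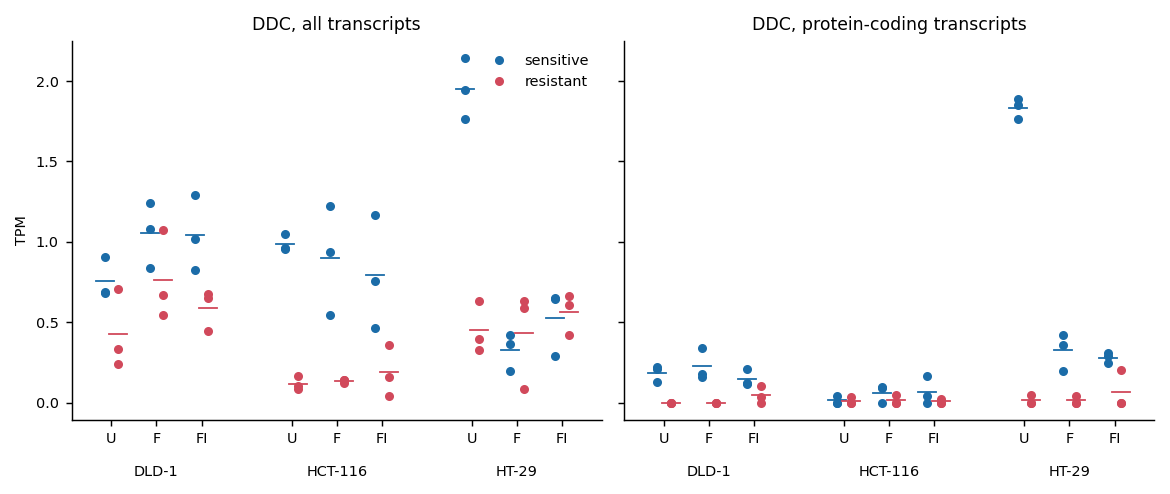
DDC level in TPM (y axis) over all transcripts (left) and over protein-coding transcripts (right), by line and by treatment (U uracil, F 5-FU, FI 5-FU with irradiation); each point is 1 library, blue sensitive and red resistant (for HT-29, as labelled), and bars are means of 3. In coding transcripts resistant DLD-1 is at 0 under uracil and 5-FU, and sensitive HT-29 lies between 1.76 and 1.89 TPM under uracil and between 0.193 and 0.418 TPM under 5-FU.

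IL1R2 (chr2:101991960-102028544, plus strand) encodes the decoy receptor that binds interleukin-1 without signalling. It was highest in DLD-1, at 21.1, 20.6 and 18.9 TPM in sensitive and 3.41, 3.07 and 2.32 TPM in resistant cells under 5-FU, a difference of -2.55 ± 0.12 (adjusted p = 2.87e-13). In HCT-116 it was near the detection limit. The sensitive libraries held 5, 19 and 10 counts and the resistant ones 1, 1 and 0 counts under 5-FU, a ratio of the summed counts per library size of 14.0 with an exact 95% interval of 3.58 to 120.1, which covers counting error only. With irradiation the ratio was 9.96 (3.07 to 51.3). Both were called, at -3.54 ± 0.78 (adjusted p = 0.000475) and -3.13 ± 0.73 (adjusted p = 0.000985), the second being lost without resistant replicate 2 (-2.47). Each resistant HCT-116 library held 0 to 2 counts, so IL1R2 passed the filter on low counts through the sensitive libraries, those under uracil included. Both calls are therefore given as a description. With the irradiated groups fitted alone, IL1R2 had no test. In sensitive HT-29 IL1R2 was at 4.98, 5.25 and 5.25 TPM, while the libraries labelled resistant HT-29 were at 0.376, 0.114 and 0.27 TPM, a difference of -5.27 ± 0.25 (adjusted p = 1.69e-16).

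RNF144B (chr6:18387350-18468870, plus strand) encodes a ubiquitin ligase of the RING-between-RING class. In HCT-116 under 5-FU it was at 1.91, 2.36 and 1.57 TPM in sensitive and 0.376, 0.517 and 0.325 TPM in resistant cells, a difference of -2.82 ± 0.27 (adjusted p = 6.56e-09). In DLD-1 the gap was narrower, 0.337, 0.349 and 0.4 TPM against 0.202, 0.158 and 0.189 TPM. These groups did not overlap and the p was low, but the fold was short of the limit, at -0.89 ± 0.24 (adjusted p = 0.00331) under 5-FU and -0.87 ± 0.23 (adjusted p = 0.00283) with irradiation. Without resistant 5-FU replicate 3 the DLD-1 value passed it, at -1.02, as did the irradiated value without sensitive replicate 1, at -1.06, and under scaling by library size alone, at -1.0. In HT-29 the levels were 1.96, 1.95 and 1.83 TPM in sensitive cells and 0.981, 0.767 and 0.935 TPM in the libraries labelled resistant. The difference fitted to the counts was -2.28 ± 0.14 (adjusted p = 2.77e-14). The ratio of the mean TPM was 2.14, less than the fitted fold. In coding transcripts alone the means were 1.91 and 0.385 TPM.

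AFAP1L2 (chr10:114294824-114404756, minus strand) encodes XB130, an adaptor that links Src-family kinases to phosphoinositide 3-kinase. In DLD-1 under 5-FU it was at 1.12, 1.15 and 1.65 TPM in sensitive and 0.149, 0.18 and 0.215 TPM in resistant cells, a difference of -2.61 ± 0.19 (adjusted p = 4.42e-10). In HCT-116 it was at 0.349, 0.273 and 0.147 TPM against 0.151, 0.074 and 0.0974 TPM. Replicate 3 of the sensitive cells lay inside the resistant range, and the difference was -1.50 ± 0.32 (adjusted p = 0.000345). With irradiation it remained called in DLD-1 (-2.67 ± 0.19 (adjusted p = 1.51e-10)) but not in HCT-116 (-0.85 ± 0.31 (adjusted p = 0.0262)). In HT-29 the levels were 4.53, 4.75 and 4.65 TPM against 0.0783, 0.114 and 0.0516 TPM, a difference of -6.32 ± 0.15 (adjusted p = 6.45e-23).

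SATB1 (chr3:18345377-18445621, minus strand) encodes a nuclear protein that anchors chromatin loops and is best known in developing T cells. In resistant DLD-1 it was all but undetected: the counts were 2, 0 and 0 under uracil, 0, 2 and 0 under 5-FU and 0, 0 and 0 with irradiation. The sensitive DLD-1 libraries held 80, 57 and 41 counts, or 0.892, 0.869 and 0.673 TPM, under 5-FU. The ratio of summed counts per library size was 61.7 under 5-FU, with an exact 95% interval of 16.8 to 513.2. With irradiation, where the resistant libraries had no count, sensitive cells were at least 66.8-fold higher against a floor of 3 counts over the group. In HCT-116 SATB1 was lower but well detected, at 3.67, 3.88 and 4.01 TPM in sensitive and 1.01, 0.855 and 0.867 TPM in resistant cells under 5-FU, a difference of -2.09 ± 0.12 (adjusted p = 1.55e-12). With irradiation it was -1.60 ± 0.12 (adjusted p = 8.04e-11). In HT-29 it was at 21.9, 21.7 and 21 TPM against 0.798, 0.284 and 0.465 TPM, a difference of -6.36 ± 0.10 (adjusted p = 5.41e-27). TBC1D5, a membrane-trafficking gene, overlaps SATB1 in the annotation.

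The size of the difference under 5-FU was compared between DLD-1 and HCT-116 in 1 fit over their 36 libraries, at the adjusted p alone. It differed for 4 of the 10 genes, where 38.4% of the tested genes differed, so the share was near that of all genes. SATB1 was further down in DLD-1, by -3.53 ± 0.62 (adjusted p = 1.29e-05), and PON3 likewise, by -2.33 ± 0.71 (adjusted p = 0.00672). RNF144B was further down in HCT-116, by 1.96 ± 0.40 (adjusted p = 7.83e-05), and B3GALT5 too, by 1.69 ± 0.16 (adjusted p = 3.73e-11). The PON3 call was lost on leaving out any of 6 libraries, with values of -1.97 to -2.46: resistant DLD-1 replicates 1 and 3, sensitive DLD-1 replicate 3, resistant HCT-116 replicates 1 and 2, and sensitive HCT-116 replicate 1. AFAP1L2, at -1.06 ± 0.38 (adjusted p = 0.0214), was called without sensitive HCT-116 replicate 2 (-1.41) and under scaling by library size alone (-1.20).

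The libraries labelled resistant HT-29 were set against HCT-116, whose markers they carried, in 1 fit over the 36 libraries of both lines. Under 5-FU, 7 of the 10 genes were lower in them than in sensitive HCT-116, where 7.28% of the tested genes were lower. With irradiation 7 were lower too, against 4.72% of genes, and none was called higher. The 7 genes were the same under both treatments: SATB1, DPEP1, PAOX, B3GALT5, AFAP1L2, RNF144B and PON3. Under 5-FU SATB1 differed by -4.08 ± 0.14 (adjusted p = 2.83e-24), PAOX by -4.36 ± 0.63 (adjusted p = 2.01e-07) and B3GALT5 by -1.92 ± 0.09 (adjusted p = 1.13e-19). PON3 differed by -1.47 ± 0.44 (adjusted p = 0.00534), a call lost without sensitive HCT-116 replicate 2 (-1.46) or 3 (-1.43) or the labelled replicate 1 (-1.21) or 2 (-1.50). The irradiated PON3 call was lost without sensitive HCT-116 replicate 2 (-1.53) or the labelled replicate 2 (-1.28) or 3 (-1.52). DDC (-0.99 ± 0.43 (adjusted p = 0.0544)), GCNT3 (-0.12 ± 0.23 (adjusted p = 0.706)) and IL1R2 (-0.66 ± 0.42 (adjusted p = 0.211)) were not called. The differences of these libraries from sensitive HT-29 were larger for each gene but B3GALT5, at -1.22, with 8 of the 10 between -2.28 and -8.59.

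Against resistant HCT-116 the same libraries were not alike in these genes. Under 5-FU SATB1 was lower in them, by -2.02 ± 0.18 (adjusted p = 1.22e-11), where 2.01% of genes were lower, and 4 genes were higher, where 1.56% were. The 4 were B3GALT5 (1.86 ± 0.13 (adjusted p = 1.56e-14)), GCNT3 (1.95 ± 0.34 (adjusted p = 1.65e-05)), RNF144B (1.30 ± 0.27 (adjusted p = 0.000226)) and IL1R2 (2.87 ± 0.75 (adjusted p = 0.00305)). IL1R2 rests on 16 counts against 2 and was lost without resistant HCT-116 replicate 3 (2.38) or the labelled replicate 1 (2.69) or 3 (2.78), and by DESeq2 (3.10, adjusted p = 0.019). DDC was called without resistant HCT-116 replicate 2 (2.94) or the labelled replicate 1 (2.46). With irradiation SATB1 was lower again, against 1.81% of genes, and 4 genes were higher, against 1.75% of genes: B3GALT5, GCNT3, IL1R2 and DDC. Of these, IL1R2 and DDC were each lost when any of several libraries was left out, IL1R2 without resistant HCT-116 replicate 1 (2.41) or 2 (1.73) or the labelled replicate 1 (2.30) or 3 (2.01), and DDC without any of the 6 (1.55 to 2.2). The IL1R2 call was also lost by DESeq2 (2.52, adjusted p = 0.0218) and with no filter on low counts (2.37, adjusted p = 0.0123), while RNF144B was called without resistant HCT-116 replicate 3 (1.32) or the labelled replicate 2 (1.09).

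**Figure D4:**
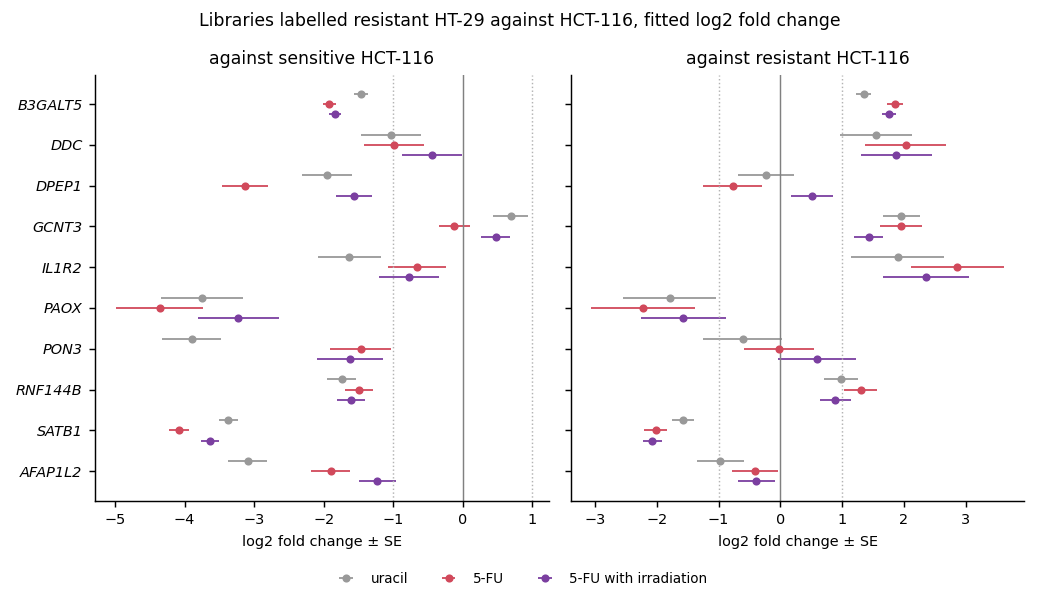
Log2 fold change (x axis) of the libraries labelled resistant HT-29 over sensitive HCT-116 (left) and over resistant HCT-116 (right) for each gene (y axis), under uracil, 5-FU and 5-FU with irradiation; points are edgeR estimates, bars are 1 SE and dotted lines mark a change of 1 in size. B3GALT5 under 5-FU is at -1.92 on the left and 1.86 on the right, and SATB1 is below 0 on both sides.

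The response to 5-FU itself shares the uracil libraries with the rule and is described without a test. In sensitive DLD-1, IL1R2 went from 8.45, 8.36 and 7.02 TPM under uracil to 21.1, 20.6 and 18.9 TPM, a log2 difference of 1.16, and B3GALT5 from 0.905, 0.971 and 0.912 to 2.42, 2.26 and 1.95 TPM. DPEP1 went the other way, from 2.14, 1.82 and 2.23 to 0.513, 0.66 and 0.71 TPM, a log2 difference of -2.08. The lines did not share one pattern. In sensitive HT-29, DPEP1 went from 8.99 ± 0.501 to 22.3 ± 0.822 TPM (mean ± SD, n = 3), IL1R2 from 1.32 ± 0.253 to 5.16 ± 0.159 TPM and PAOX from 0.976 ± 0.192 to 1.96 ± 0.301 TPM. DDC there dropped from 2.14, 1.76 and 1.94 to 0.418, 0.366 and 0.193 TPM, and RNF144B from 3.52 ± 0.226 to 1.91 ± 0.0691 TPM. In sensitive HCT-116 the widest difference was in PON3, at -1.71. In resistant cells all 30 fitted differences between 5-FU and uracil lay between -0.95 (GCNT3 in DLD-1) and 0.70 (PON3 in the libraries labelled resistant HT-29), and in sensitive cells between -2.76 (DDC in HT-29) and 1.73 (IL1R2 in HT-29).

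Irradiation added to 5-FU was compared with 5-FU alone. In sensitive cells edgeR called 0 of the 10 genes in each line, against 0%, 0% and 0.00842% of tested genes for DLD-1, then HCT-116, then HT-29, with 0 genes at an unadjusted p under 0.05 in each line and 0 calls by DESeq2, which gave an adjusted p for 2, 2 and 10 of the genes. In resistant DLD-1 edgeR called 0, against 0.142% of genes, with 0 at an unadjusted p under 0.05. In resistant HCT-116 it called 0, against 0.0261% of genes, with 2 at an unadjusted p under 0.05, SATB1 at 0.58 ± 0.13 (adjusted p = 0.0099) and GCNT3 at 1.23 ± 0.32 (adjusted p = 0.0247). DESeq2 called 0 in both, though it gave an adjusted p for 6 and 3 of the 10 genes. In the libraries labelled resistant HT-29, DPEP1 was called, where 0.434% of genes were. With it, 3 genes were at an unadjusted p under 0.05, the others being GCNT3 at 0.74 ± 0.21 (adjusted p = 0.0107) and SATB1 at 0.54 ± 0.19 (adjusted p = 0.0475). DPEP1 stood at 0.116, 0.309 and 0.0255 TPM (7, 14 and 1 counts) under 5-FU and at 0.861, 0.79 and 0.699 TPM (25, 32 and 19 counts) with irradiation. The groups did not overlap, and the difference was 1.58 ± 0.39 (adjusted p = 0.00361). The call was lost on leaving out 5-FU replicate 1 (1.51) or 3 (1.08) or irradiated replicate 1 (1.55) or 2 (1.45), and when the compared groups were fitted alone (1.57, adjusted p = 0.026).

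The response to irradiation was also compared between resistant and sensitive cells. It differed for 0 of the 10 genes in DLD-1, where 0.0413% of genes differed by edgeR, and 0 in HCT-116, where 0.165% did, with 0 and 2 genes at an unadjusted p under 0.05 and 0 calls by DESeq2, which gave an adjusted p for 2 genes in each. In HT-29 as labelled, where 5.4% of genes differed, DPEP1 was called, at 1.59 ± 0.40 (adjusted p = 0.00936). This was lost on leaving out any 1 of 11 of the 12 libraries, all but resistant 5-FU replicate 2, with values of 1.10 to 1.73.

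**Figure D5:**
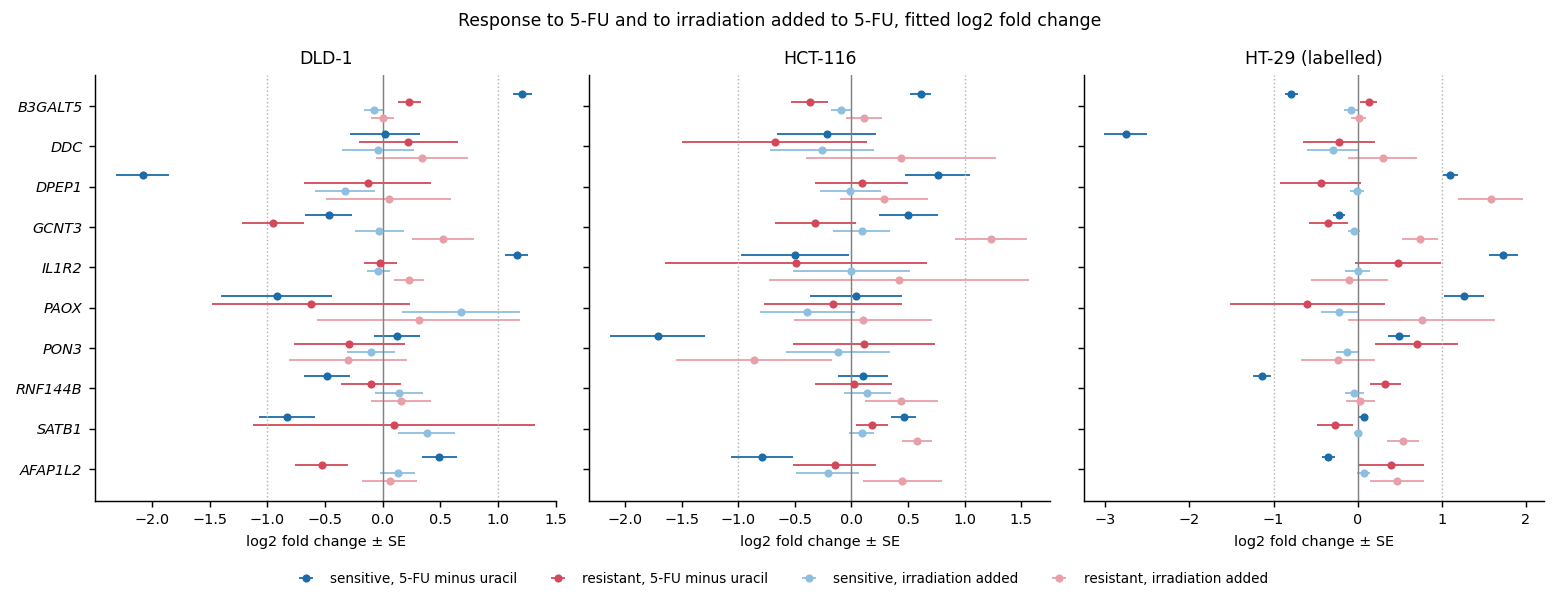
Log2 fold change (x axis, log2) of each of the 10 genes (y axis) for 5-FU over uracil and for 5-FU with irradiation over 5-FU, in sensitive and resistant cells of each line; points are edgeR estimates, bars are 1 SE and the fit against the group with no SATB1 count is not drawn. DPEP1 with irradiation in the libraries labelled resistant HT-29, at 1.58, is the one called value for irradiation.

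The levels of the 10 genes were compared with each other per length, in TPM. Under 5-FU their mean levels in sensitive cells stood at a median percentile of 30.9 of all genes tested for DLD-1, 28.8 for HCT-116 and 53.1 for HT-29. The ranges were 10.8 (PAOX) to 68.3 (IL1R2) in DLD-1 and 12.4 (IL1R2) to 47.8 (SATB1) in HCT-116, while in HT-29 DDC was lowest and GCNT3 highest, at 98.2. When the 18 conditions were ordered by mean TPM, most neighbours overlapped in their replicates, from 10 of 17 neighbouring pairs for SATB1 to 16 of 17 for PAOX. Among the 12 conditions other than uracil, the 6 sensitive ones were the top 6 for B3GALT5, PAOX and PON3, and 4 or 5 of the top 6 for the others. How many of all genes had such an order was not counted. The 10 were chosen as lower in the same resistant populations, so this order is a description. For IL1R2 the line outweighed sensitivity: resistant DLD-1, at 2.93 ± 0.557 TPM under 5-FU, stood above sensitive HCT-116 at 0.256 ± 0.0217 TPM. Across the 18 condition means, Pearson's r between pairs of the genes ran from -0.17 to 0.96 with a median of 0.60 over 45 pairs. Without HT-29 it ran from -0.50 to 0.93 over 12 conditions, and 8 of 45 pairs were negative. These conditions share lines and sensitivity, and those under uracil chose the genes, so the r are descriptions.

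By the same measure, the r of log2(TPM + 1) over the 18 condition means, the genes most like each member among 21996 were, for GCNT3, UGT1A10 (0.995) and LGALS4 (0.995), for IL1R2, BMP2 (0.990) and CREB3 (0.985), and for AFAP1L2, AKR1C3 (0.987) and SPINK1 (0.986). For SATB1 they were INPP5D (0.978) and HM13 (0.971), for PON3 LINC01232 (0.970) and ZNF841 (0.964), for DPEP1 HM13 (0.969) and PCMTD1 (0.967), and for PAOX COX6B2 (0.961) and AOPEP (0.960). RNF144B had ETV4 (0.935) and MRPL21 (0.931), B3GALT5 had MRPS33 (0.918) and ARHGAP26 (0.909), and DDC had MRPS33 (0.905) and DOLK (0.835). With a pseudocount of 0.1, 10 of these 20 pairs were kept. The r of GCNT3 reflect sensitive HT-29 against the other conditions. UGT1A10 was at 213 to 322 TPM in sensitive HT-29 and at most 0.951 TPM elsewhere, and LGALS4 at 366 to 410 and at most 2.31 TPM. For these pairs no r was taken without HT-29.

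Genes related to the members by function were counted under 5-FU by the same limits. Of 145 listed genes, 123 were tested in DLD-1, where 9 were lower and 5 higher in resistant cells (7.32% and 4.07%). In HCT-116 17 of 124 were lower and 3 higher (13.7% and 2.42%), and in HT-29 as labelled 45 of 132 were lower and 34 higher (34.1% and 25.8%). These stand beside the shares of all genes given above. By list, the glycan enzymes around B3GALT5 and GCNT3 gave 2 lower and 2 higher of 27 in DLD-1 (median log2 difference 0.03) and 1 and 1 of 26 in HCT-116 (-0.04). The interleukin-1 list of IL1R2 gave 2 lower and 2 higher of 15 in DLD-1 (median -0.14) and 3 lower and 1 higher of 15 in HCT-116 (-0.34). The list of glutathione and leukotriene breakdown around DPEP1 gave 2 lower of 11 in DLD-1 (0.17) and 3 lower of 13 in HCT-116 (-0.14). The intestinal transcription factors gave 2 lower and 1 higher of 16 in DLD-1 (-0.20) and 3 lower and 1 higher of 14 in HCT-116 (-0.32). In HT-29 as labelled, where 21% of all tested genes were lower and 21.7% higher, the glycan list gave 10 lower and 7 higher of 28 (-0.46). The interleukin-1 list gave 10 and 2 of 18 there (-1.38). The list around DPEP1 gave 2 and 2 of 13 (-0.04), and the transcription factors 11 and 4 of 17 (-1.54).

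The other 6 lists gave 0 to 3 genes lower each in DLD-1 and HCT-116, and no gene higher. Aromatic amine genes around DDC gave 0 of 13 in DLD-1 and 3 lower of 12 in HCT-116, polyamine genes around PAOX 0 of 16 and 1 lower of 17, and the paraoxonases beside PON3 1 lower of 2 and 0 of 1. The ubiquitin ligases of the class of RNF144B gave 0 of 12 and 1 lower of 13, the SATB and CUT homeodomain genes 0 of 4 and 1 lower of 6, and the AFAP adaptors and Src kinases 0 of 7 and 1 lower of 7. In HT-29 as labelled these 6 lists gave more calls, in both directions: 3 lower and 4 higher of 12 aromatic amine genes, 3 and 4 of 17 polyamine genes, 1 and 0 of 2 paraoxonases, 2 and 5 of 13 ubiquitin ligases, 1 and 3 of 5 SATB and CUT genes, and 2 and 3 of 7 AFAP and Src genes. Genes called in the same direction in DLD-1 and HCT-116 were GGT6, a gamma-glutamyltransferase, at -4.91 ± 0.29 (adjusted p = 9.57e-12) and -2.38 ± 0.43 (adjusted p = 5.3e-05), and IL1RN, the interleukin-1 receptor antagonist, at -1.48 ± 0.08 (adjusted p = 4.38e-12) and -4.82 ± 0.79 (adjusted p = 1.72e-05). IL1RN and IL1R2 both oppose interleukin-1, as background.

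The nearest coding genes on each side of the 10 genes were also counted under 5-FU. Of 20 neighbours, 2 of 19 tested were lower in DLD-1, 3 of 18 lower and 1 higher in HCT-116, and, as labelled, 6 of 17 lower and 4 higher in HT-29. Of all tested genes, 5.23%, 8.03% and 21% were lower and 3.88%, 5.28% and 21.7% higher. IGSF5, which lies 72046 bases from B3GALT5 and encodes a junctional adhesion protein, was lower in both DLD-1 (-1.20 ± 0.19, adjusted p = 2.36e-05) and HCT-116 (-3.46 ± 0.50, adjusted p = 3.4e-06).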

How the data were processed

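Per the labels and the study's methods, poly(A) RNA was sequenced as directional paired reads, trimmed with Trimmomatic 0.36, checked with FastQC 0.11.8 and quantified by kallisto 0.44.0 on Ensembl 98 transcripts of GRCh38.p13. The authors deposited estimated counts, not normalized, and TPM, scaled by transcript length and library depth, per transcript and summed per gene. The strand setting of kallisto is not given in the sources used here, so reads of overlapping genes may be shared.

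These counts, rounded to whole numbers, were fitted with edgeR 4.0.16 (R 4.3.3; TMM scaling, filterByExpr, quasi-likelihood test) over the 18 libraries of a line in 6 groups, or over 36 libraries in 12 groups for comparisons of 2 lines. P-values were adjusted by Benjamini-Hochberg over all genes of a fit. A gene was called where the adjusted p was 0.01 or less and the log2 fold change 1 or more in size, the study's thresholds, and differences between differences at the adjusted p alone. All 10 genes passed the filter on low counts in every main fit, but not in every fit of the compared groups alone. Where the resistant libraries held few counts, as for IL1R2 and DDC in HCT-116, a gene passed through its sensitive libraries, those under uracil included. The DLD-1 fit was tested on simulated counts, for resistant against sensitive cells under 5-FU. The genes changed in that simulation were well counted, so it did not cover faint genes or the other fits. Depth limits the faint genes: with 0 counts in a group, a floor of 3 counts was used, and intervals of count ratios (95%, exact binomial) cover counting error only.

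The members and all lists were chosen with earlier results of these data known. All 10 members are named, with the 2 genes most like each by Pearson's r (at least 1 TPM in a condition), related genes called in the same direction in DLD-1 and HCT-116 (at most 3 per list) and flanking genes so called. The alternatives were DESeq2 1.42.0, no filter on low counts, scaling by library size alone, the compared groups alone, a log2 limit of 2, the replicate number as a block and each library left out. The study describes the replicates as biological. No pair of replicates agreed within counting noise (lowest chi-square per degree of freedom 2.31 over 54 pairs), so none was merged.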

Additional observations from a re-analysis of the deposited data

Results flagged for a closer look

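The response of DPEP1 to irradiation added to 5-FU differed between the libraries labelled resistant HT-29 and sensitive HT-29, by 1.59 ± 0.40 on the log2 scale (SE; adjusted p = 0.00936 by edgeR). Its level was 0.116, 0.309 and 0.0255 TPM under 5-FU and 0.861, 0.790 and 0.699 TPM with irradiation in the labelled libraries, and 22.4, 23.1 and 21.4 TPM and 22.1, 21.8 and 23.3 TPM in sensitive HT-29. These libraries also carried HCT-116 markers, whose part in the result was not tested.

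The difference between resistant and sensitive cells under 5-FU was not of the same size in DLD-1 and HCT-116 for 4 genes, by the test of the difference itself. DLD-1 minus HCT-116 gave 1.69 ± 0.16 for B3GALT5 (adjusted p = 3.73e-11), 1.96 ± 0.40 for RNF144B (adjusted p = 7.83e-05), -2.33 ± 0.71 for PON3 (adjusted p = 0.00672) and -3.53 ± 0.62 for SATB1 (adjusted p = 1.29e-05), all by edgeR. Of all genes tested, 38.4% differed between the 2 lines in this way.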

How the results depend on the processing

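Of 284 alternative values of the 22 counts of called genes, 256 were within 1.5 times the reported count. Fitting the compared groups alone gave 5 genes lower in irradiated resistant HCT-116 (reported 8), 0 changed by irradiation in the libraries labelled resistant HT-29 (reported 1) and 2 higher there than in irradiated resistant HCT-116 (reported 4). A log2 limit of 2 gave 0 changed by irradiation in the labelled libraries, 3 (5-FU) and 2 (with irradiation) lower in them than in sensitive HCT-116 (reported 7 and 7), and 1 and 1 higher than in resistant HCT-116 (reported 4 and 4). With no filter on low counts, 1 gene was changed by irradiation in resistant HCT-116 (reported 0) and 2 differed in their response to irradiation in HT-29 (reported 1). In the fits of the compared groups alone, a gene that failed the filter on low counts had no test and counted as not called. DDC and IL1R2 had no test for irradiated resistant HCT-116 against sensitive HCT-116 or against the labelled libraries. PAOX, in the first of these comparisons, lost its call on p. The causes of the other shifts were not tested.

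Leaving out each library in turn gave, for genes lower in resistant cells under 5-FU, 7 to 9 in DLD-1, 9 in HCT-116 and 9 to 10 in HT-29, and with irradiation 7 to 9, 5 to 8 (5 without resistant HCT-116 replicate 3) and 9. It gave 0 to 1 for irradiation in the labelled libraries and for the difference in that response, 3 to 5 for the difference between DLD-1 and HCT-116, 6 to 7 lower than sensitive HCT-116 under both treatments, and 3 to 5 (5-FU) and 2 to 4 (with irradiation) higher than resistant HCT-116; the other counts did not move.

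Of 1285 alternative values of single genes, 68 lost and 14 gained a call, and 12 changed sign, all of values that were not called. These 12 were for DPEP1 (0.18; -0.75 to 0.18 over single libraries left out) and PAOX (-0.01, -0.04 and -0.1; -0.1 to 0.82) in DLD-1 minus HCT-116, GCNT3 under 5-FU (0.05 and 0.04; -0.32 to 0.05) and DDC with irradiation (0.19; -0.8 to 0.19) in the labelled libraries minus sensitive HCT-116, and PON3 in the same minus resistant HCT-116 (0.00 by DESeq2, 0.02 by library size, and 0.11, 0.00 and 0.25; -0.28 to 0.25). Scaling by library size alone moved the median of all genes to between -0.147 and 0.162 over the comparisons, from between -0.021 and 0.032. Replicate numbers did not pair the samples: correlations of same-numbered libraries' deviations ran from -0.0869 to 0.0619 in DLD-1, -0.0818 to 0.103 in HCT-116 and -0.0564 to 0.045 in HT-29. With the replicate block, each of the 22 counts was the reported one, for example 8, 9 and 10 genes lower under 5-FU. Depth limits IL1R2 in HCT-116, SATB1 in resistant DLD-1, PAOX and DDC, with few counts in each library.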
